A study of Mus musculus with 14 samples.

Results

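The genes described are those of the Gdf11, activin and follistatin axis. They comprise 3 ligand genes (Gdf11, Inhba and Inhbb), 3 receptor genes (Acvr1b, Acvr2a and Acvr2b), 3 genes of the follistatin family (Fst, Fstl3 and Fstl1), and Smad7, an inhibitor inside the cell. The 10 genes were chosen by name for their place in the pathway, and all of their probe sets on the array were taken. These are 19 of the 34945 probe sets annotated to exactly 1 gene, and 18 of the 19 were among the 23887 whose signal was high enough to be tested. A probe set is a group of short probes designed to 1 transcript region, so probe sets of the same gene can read different parts of its transcripts.

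Expression was profiled on 14 Affymetrix arrays of skeletal muscle precursor cells sorted from C57BL/6 mice. There were 5 arrays from young mice (2 months), 4 from middle-aged mice (12 months) and 5 from aged mice (24 months). The cells of all ages were sorted as CD45-, Ter119-, Sca-1-, CD29+ and Cxcr4+, a gate that enriches for satellite cells, the stem cells of muscle. The labels give no treatment that differs between ages and do not say whether arrays of 1 age came from separate mice, so p-values measure the spread between these arrays, which may be technical.

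GDF11 and the activins are secreted as dimers of the TGF-beta superfamily. They bind a type II receptor (ACVR2A or ACVR2B), which then activates a type I receptor such as ACVR1B (ALK4), and the complex phosphorylates SMAD2 and SMAD3, which move to the nucleus with SMAD4. Follistatin, the product of Fst, wraps around activins, GDF11 and myostatin and blocks their access to receptors, and FSTL3 acts in a similar way. SMAD7 binds the activated type I receptor and limits signalling. In skeletal muscle the pathway is known as a brake on growth, and follistatin as a promoter of muscle mass.

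Levels are log2 of the deposited intensities, and a change is a difference of group means on that scale, with limma's standard error (SE). A change was called when its p-value, adjusted by the Benjamini-Hochberg method over all 23887 probe sets, was under 0.05. The sorted cells carried the myogenic transcripts Pax7 (8.39 to 9.90 over the 14 arrays) and Myod1 (10.54 to 11.33), and the 2 selected surface markers Itgb1 (CD29, 7.66 to 9.25) and Cxcr4 (7.42 to 8.92). Ptprc, which encodes the excluded CD45, lay at 2.97 to 3.44, below the filter on all 14 arrays. The arrays fell into 2 sets along the first principal component of the values after age means were removed. Set 1 holds young 1, 3 and 4, middle-aged 2, 3 and 4, and aged 1 and 2, while set 2 holds young 2 and 5, middle-aged 1, and aged 3, 4 and 5. The labels do not name what separates the sets, so they are not called batches. Since the sets were drawn from these same values, the spread within a set is reduced by construction, and p-values within a set are descriptions rather than independent evidence.

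Of the whole axis, Fst showed the largest change with age, and the gene for GDF11 itself did not pass the test. Fst transcript was 4.41-fold higher in aged than in young cells by its brighter probe set, and 2.45-fold higher by its other one, which narrowly missed the threshold. The call of the brighter one was lost with a covariate for RNA quality (log2 change 1.22 ± 0.41, adjusted p = 0.134, against 2.14 ± 0.44 without it) and on the linear scale (adjusted p = 0.0607). The brighter Inhba, Inhbb and Acvr1b probe sets were also higher on average in aged cells, by 1.52-fold to 2.53-fold, but none of these passed. In aged against young cells 1 of the 18 probe sets was called, against 3.10% of all 23887 in either direction and 2.21% in the higher direction. An unadjusted p under 0.05 was reached by 5 of the 18, against 15.2% of all. The median change over the 18 was 0.05, against -0.05 over all probe sets, whose middle 50% ran from -0.22 to 0.15. Every aged array lay above every young array for 3 of the 18 (Fst 1434458_at, Acvr1b 1433725_at and Inhbb 1426858_at), against 2.82% of all probe sets.

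**Figure D1:**
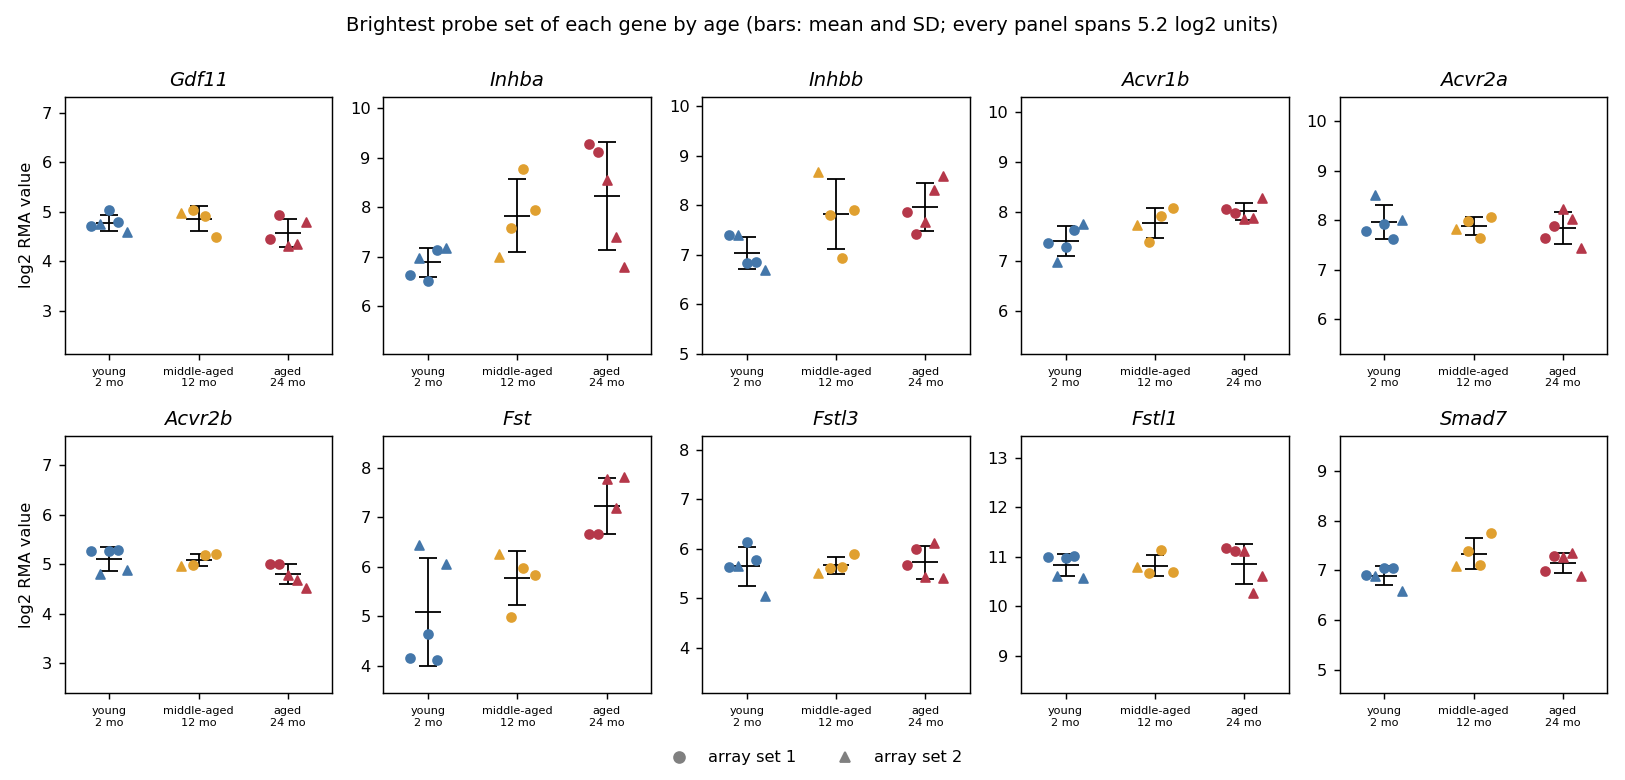
The log2 level of the brightest probe set of each of the 10 genes is plotted by age, with 1 point per array (circles array set 1, triangles array set 2) and bars for the mean and SD; every panel spans the same number of log2 units. Fst averaged 5.08 in young, 5.76 in middle-aged and 7.22 in aged cells, while Gdf11 stayed between 4.31 and 5.04 on all arrays.

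Gdf11, the ligand gene that heads the axis, was read by 1 probe set (1427723_at, Entrez 14561) at a low level. It lay at 4.72, 4.74, 5.04, 4.79 and 4.59 in young, 4.96, 5.04, 4.92 and 4.48 in middle-aged, and 4.45, 4.93, 4.31, 4.34 and 4.79 in aged cells. The 3 ages overlapped, although 3 of the 5 aged arrays lay below the lowest young one. These levels were between the 50.4th and the 61.2nd percentile of all probe sets on their arrays. That is a middle rank but a low signal, not far above the filter on dim probe sets. By comparison, Fstl1 1416221_at averaged 10.86 in aged cells. The aged mean was 4.56 ± 0.28 (SD, n = 5) against 4.78 ± 0.16 in young cells (SD, n = 5), a change of -0.21 ± 0.16 (SE, adjusted p = 0.594). Its 95% confidence interval, -0.56 to 0.13, corresponds to a fold between 0.680 and 1.10. For middle-aged against young cells the change was 0.08 ± 0.17 (adjusted p = 0.895), and for aged against middle-aged cells it was -0.29 ± 0.17 (adjusted p = 0.643). Neither direction of change in Gdf11 transcript was called between any pair of ages.

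Inhba (Entrez 16323) encodes the beta A subunit, which pairs with itself to form activin A. Its brighter probe set, 1422053_at, lay at 6.64, 6.98, 6.51, 7.14 and 7.18 in young cells, 7.00, 7.59, 8.78 and 7.95 in middle-aged cells, and 9.28, 9.13, 8.55, 7.40 and 6.79 in aged cells. Of the aged arrays, 4 lay above every young one, and aged 5 lay inside the young range. The SD was 1.09 in aged cells and 0.30 in young cells, so the spread was wider at the older age, though this difference was not tested. The mean was 8.23 in aged and 6.89 in young cells, a change of 1.34 ± 0.43 or 2.53-fold (adjusted p = 0.125). Within array set 1 the same change was 2.44 ± 0.33 (2 aged against 3 young arrays, adjusted p = 0.006), and within set 2 it was 0.50 ± 0.50 (3 against 2 arrays, adjusted p = 0.802). Without aged 5, the array inside the young range, it was 1.70 ± 0.38 and was called (adjusted p = 0.0250). That was the only call in the 14 limma fits that each left out 1 array, where the adjusted p reached 0.264. Middle-aged cells stood 0.94 ± 0.46 above young cells (adjusted p = 0.364), and aged cells 0.40 ± 0.46 above middle-aged cells (adjusted p = 0.828). The dimmer probe set, 1458291_at, averaged 4.20 in aged and 4.41 in young cells, a change of -0.21 ± 0.13 in the other direction (adjusted p = 0.507). Its interval was -0.50 to 0.07, and it lay between the 42.3rd and the 54.1st percentile of its arrays, near the filter. The 2 Inhba probe sets thus pointed in opposite directions, 1 of them at a low signal.

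Inhbb (Entrez 16324) encodes the beta B subunit of activin B. Probe set 1426858_at lay at 7.39, 7.39, 6.84, 6.86 and 6.70 in young cells, 8.67, 7.79, 6.94 and 7.90 in middle-aged cells, and 7.85, 7.41, 7.65, 8.31 and 8.58 in aged cells. All 5 aged arrays lay above all 5 young ones, though narrowly, with aged 2 at 7.41 against young 1 and 2 at 7.39. The mean was 7.96 ± 0.48 in aged and 7.04 ± 0.33 in young cells, a change of 0.92 ± 0.29 or 1.90-fold with an adjusted p of 0.114. A similar middle-aged mean of 7.83 gave a change of 0.79 ± 0.31 against young cells (adjusted p = 0.238), and aged cells stood 0.14 ± 0.31 above middle-aged ones (adjusted p = 0.927). The second Inhbb probe set, 1426859_at, averaged 4.19 in aged, 4.62 in middle-aged and 4.48 in young cells. Its change was -0.30 ± 0.15 in aged against young cells (adjusted p = 0.384) and -0.44 ± 0.16 in aged against middle-aged cells (adjusted p = 0.492), so here too the probe sets pointed in opposite directions. This second probe set lay between the 41.3rd and the 58.8th percentile of its arrays, again near the filter.

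Among the receptors, Acvr1b (Entrez 11479), the type I receptor ALK4, came closest to a call. Its brighter probe set, 1433725_at, lay at 7.36, 6.98, 7.27, 7.62 and 7.75 in young, 7.72, 7.38, 7.92 and 8.07 in middle-aged, and 8.05, 7.98, 7.85, 7.88 and 8.26 in aged cells. The aged values formed a tight group above every young array, with the middle-aged values overlapping both. The mean was 8.00 ± 0.17 in aged and 7.40 ± 0.30 in young cells, a change of 0.61 ± 0.17 or 1.52-fold (adjusted p = 0.0731). That change was 0.59 within array set 1 and 0.63 within set 2. Middle-aged cells stood 0.37 ± 0.18 above young cells (adjusted p = 0.364). The dimmer Acvr1b probe set, 1422098_at, averaged 4.01 in aged and 4.17 in young cells (change -0.15 ± 0.13, adjusted p = 0.622).

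The type II receptors, which bind the ligand first, gave no call. Acvr2a (Entrez 11480) averaged 7.84 ± 0.31 in aged and 7.96 ± 0.34 in young cells by probe set 1437382_at, a change of -0.12 ± 0.19 (adjusted p = 0.821). By 1451004_at it averaged 7.15 ± 0.37 in aged, 6.96 ± 0.46 in middle-aged and 7.36 ± 0.07 in young cells. That probe set gave changes against young cells of -0.21 ± 0.20 in aged (adjusted p = 0.696) and -0.41 ± 0.22 in middle-aged cells (adjusted p = 0.412). Young arrays were close together for it, and the older ages spread to both sides of them. Acvr2b (Entrez 11481) averaged 4.80 in aged and 5.10 in young cells by 1439856_at, a change of -0.30 ± 0.15 with an adjusted p of 0.356. Its second probe set, 1419140_at, averaged 4.40 in aged and 4.57 in young cells (change -0.17 ± 0.24, adjusted p = 0.806) and was above the filter on 12 of 14 arrays. The third, 1440525_at, was above the filter on 1 array and was not tested. It averaged 3.68 in aged, 3.57 in middle-aged and 3.59 in young cells, between the 22.5th and the 50.4th percentile of its arrays.

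Fst (Entrez 14313), the follistatin gene, held the only call among the 18. Its brighter probe set, 1434458_at, lay at 4.15, 6.44, 4.64, 4.12 and 6.05 in young cells. In middle-aged cells it lay at 6.26, 4.99, 5.98 and 5.83, and in aged cells at 6.66, 6.67, 7.78, 7.18 and 7.82. Every aged array stood above every young and every middle-aged array, while the young arrays split into a group of 3 near the filter and a pair, young 2 and 5, at the middle-aged level. The mean was 7.22 ± 0.57 in aged (SD, n = 5) and 5.08 ± 1.09 in young cells (SD, n = 5). The change of 2.14 ± 0.44 (95% interval 1.21 to 3.08) corresponds to 4.41-fold, between 2.31-fold and 8.44-fold, with an adjusted p of 0.0134, subject to the RNA quality values given after the plot of Fst by array. It ranked number 345 of 23887 by p, so many other probe sets changed with stronger evidence. An F test over the 3 ages also called it (F = 12.4, adjusted p = 0.0314), as the only one of the 18, against 2.81% of all probe sets.

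Most of the separation in Fst lay after 12 months by the means, but no test placed it there. Aged cells stood 1.46 ± 0.47 above middle-aged cells (unadjusted p = 0.00677, adjusted p = 0.461), and middle-aged cells 0.68 ± 0.47 above young cells (adjusted p = 0.559). The later step minus the earlier step was 0.77 ± 0.82 (adjusted p = 0.781). The second probe set, 1421365_at, placed more of its change in the earlier step. It lay at 5.73, 5.65, 5.66, 4.69 and 4.87 in young, 6.30, 6.44, 5.53 and 6.53 in middle-aged, and 7.50, 6.09, 6.94, 6.96 and 5.59 in aged cells. Of the aged arrays, 4 lay above every young one, while aged 5 lay within the young range. It averaged 6.62 ± 0.77 in aged and 5.32 ± 0.50 in young cells, a change of 1.29 ± 0.34 or 2.45-fold (adjusted p = 0.0509). Middle-aged cells stood 0.88 ± 0.36 above young cells by this probe set (adjusted p = 0.257), and aged cells 0.41 ± 0.36 above middle-aged cells (adjusted p = 0.755). Both Fst probe sets thus ran in the same direction, with 1 of them past the threshold. Left-out arrays moved the second across it: its change was called without middle-aged 3 (adjusted p = 0.0461), aged 2 (0.0472) or aged 5 (0.0145). These were 3 of the 14 limma fits that each left out 1 array. Over all 14 its change ran from 1.07 to 1.55, and the adjusted p reached 0.133.

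**Figure D2:**
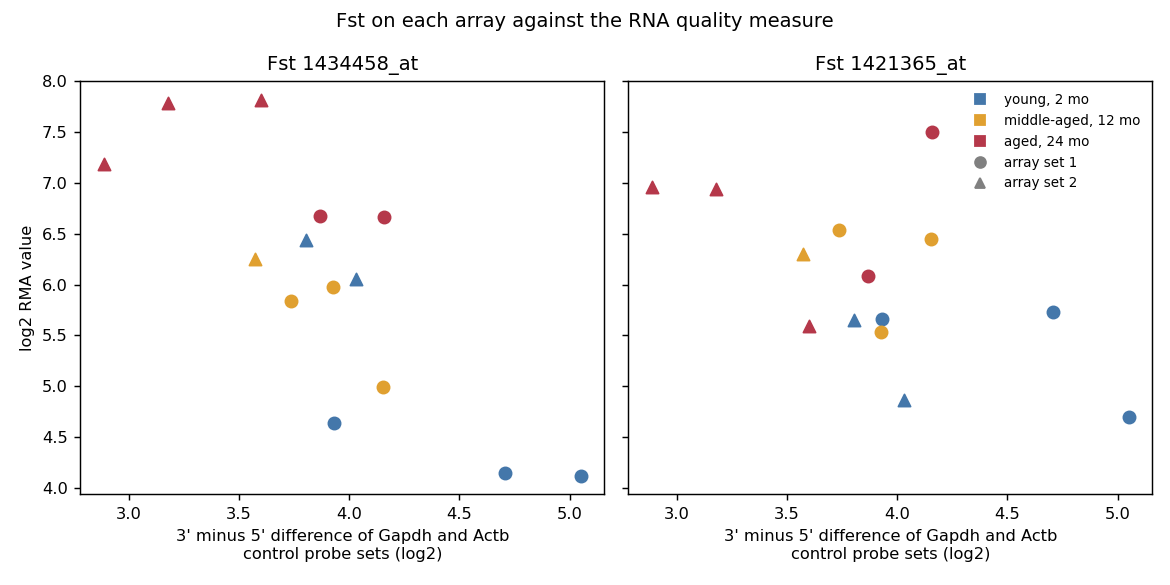
The log2 level of Fst on each array is plotted against the log2 signal difference between the 3' and 5' ends of Gapdh and Actb, for probe set 1434458_at (left) and 1421365_at (right); colours mark the age and shapes the array set. In the left panel the 5 aged arrays lie at or above 6.66, and the 2 young arrays of set 2 lie well above the 3 young arrays of set 1.

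The called Fst change moved with 2 features of the arrays. The first is RNA quality, read as the signal at the 3' end minus that at the 5' end of Gapdh and Actb, which grows as RNA is degraded or incompletely copied. It averaged 3.54 ± 0.51 in aged (2.89 to 4.16), 3.85 ± 0.25 in middle-aged (3.57 to 4.16) and 4.30 ± 0.54 in young cells (3.81 to 5.05), so it was lowest on average where Fst was highest. With this difference as a covariate the change of 1434458_at was 1.22 ± 0.41 and was no longer called (adjusted p = 0.134), and that of 1421365_at was 1.12 ± 0.43 (adjusted p = 0.190). The second feature is the array set. The change of 1434458_at was 2.36 ± 0.29 within set 1 (adjusted p = 0.00474) and 1.35 ± 0.27 within set 2 (adjusted p = 0.192), and set 2 lay above set 1 by 0.93 in aged and by 1.94 in young cells. For 1421365_at the 2 sets gave 1.43 and 1.24. On the deposited linear scale the change of 1434458_at was 116 ± 26.2 intensity units and missed the threshold (adjusted p = 0.0607).

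No probe set of Fstl3 or Fstl1 was called. Fstl3 (Entrez 83554), a secreted binder of activins and myostatin, averaged 5.72 ± 0.33 in aged, 5.66 ± 0.16 in middle-aged and 5.64 ± 0.39 in young cells. Its aged minus young change of 0.08 ± 0.20 (adjusted p = 0.899) has an interval of -0.34 to 0.50. Fstl1 (Entrez 14314), a follistatin-like glycoprotein that shares the follistatin module, had the highest percentiles of the axis, at or above the 95.4th of its array. Probe set 1416221_at averaged 10.86 in aged and 10.83 in young cells (change 0.03 ± 0.19, interval -0.38 to 0.43, adjusted p = 0.970). Probe set 1448259_at averaged 10.26 in aged and 9.95 in young cells (change 0.31 ± 0.21, adjusted p = 0.548). Whether these changes differ from those of the Fst probe sets was not tested.

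Smad7 (Entrez 17131) had its highest mean at 12 months by its brighter probe set and at 24 months by its dimmer one. The brighter, 1423389_at, lay at 6.91, 6.88, 7.05, 7.06 and 6.58 in young, 7.10, 7.39, 7.10 and 7.77 in middle-aged, and 6.99, 7.29, 7.26, 7.36 and 6.90 in aged cells. Every middle-aged array lay above every young one, and the aged arrays overlapped both. Middle-aged cells stood 0.44 ± 0.17 above young cells (interval 0.08 to 0.81, unadjusted p = 0.0204, adjusted p = 0.230), and aged cells 0.26 ± 0.16 above young cells (adjusted p = 0.491). The later step minus the earlier step was -0.62 ± 0.30 (unadjusted p = 0.0560, adjusted p = 0.474). The dimmer 1443771_x_at averaged 5.73 in aged, 5.64 in middle-aged and 5.53 in young cells (aged minus young 0.21 ± 0.23, adjusted p = 0.745).

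**Figure D3:**
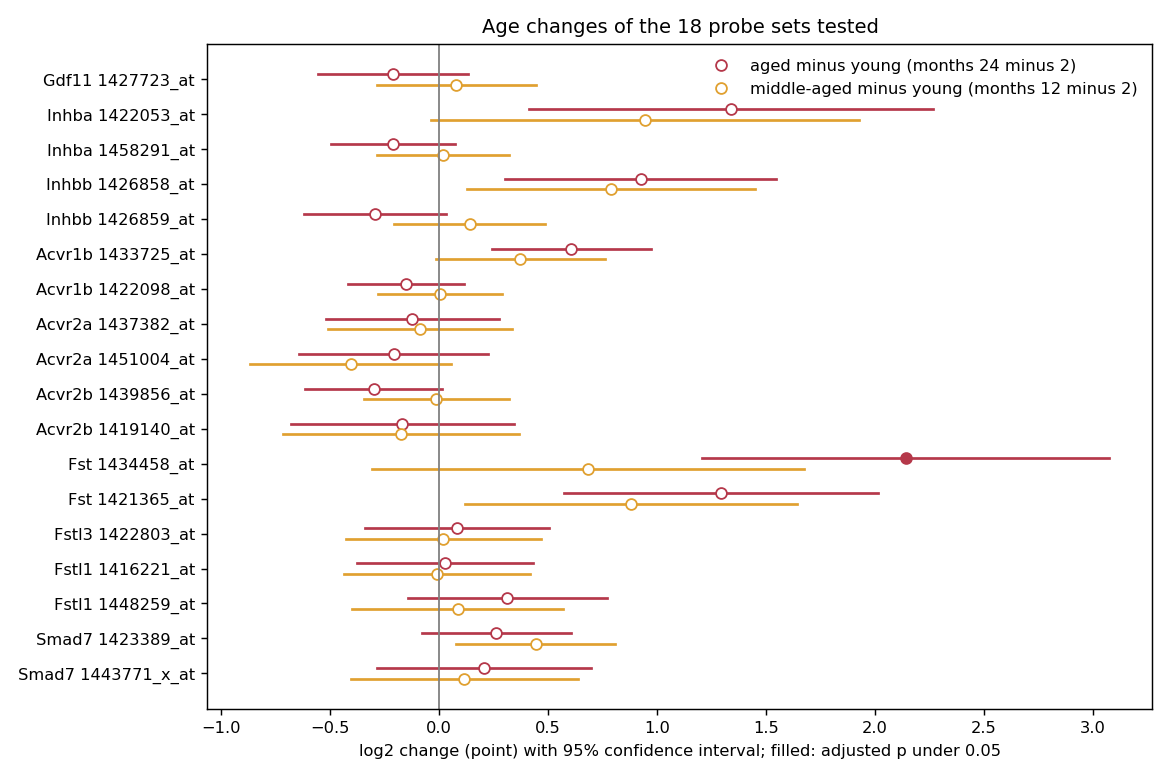
The log2 change of each of the 18 tested probe sets is plotted with its 95% confidence interval, aged minus young above middle-aged minus young within each row, and filled points passed the adjusted p threshold. The only filled point is Fst 1434458_at in aged minus young, at 2.14.

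By middle age no probe set of the axis was called. Against young cells, 0 of 18 passed in limma in middle-aged cells, with 3 at an unadjusted p under 0.05 (Inhbb 1426858_at, Fst 1421365_at and Smad7 1423389_at), while 1.86% of all probe sets passed and 14.7% had an unadjusted p under 0.05. The change was positive for 13 of the 18, with a median of 0.08, against -0.04 over all probe sets. Between aged and middle-aged cells, limma called 0 of the 18 and 0 of all 23887 (0%), with 2 of the 18 (Fst 1434458_at and Inhbb 1426859_at) and 8.74% of all at an unadjusted p under 0.05. The test of the later step against the earlier step also called 0% of all, with 10.9% at an unadjusted p under 0.05 and 0 of the 18. The comparisons with young cells share the same 5 young arrays.

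Of the wider pathway, Dcn and Timp1 were called. Of 88 listed genes in 6 groups, 72 were measured, each by its brightest kept probe set. In aged against young cells 2 of the 72 were higher and 0 lower, against 3.75% of all 13579 genes, with a median change of -0.04 over the list and -0.05 over all genes. An unadjusted p under 0.05 was reached by 15 of the 72, against 16.3% of all genes. In middle-aged against young cells the same counts were 2 higher and 0 lower, against 2.32% of all genes, with a median of 0.01 over the list and -0.04 over all genes. There 13 of the 72 had an unadjusted p under 0.05, against 16.1% of all genes. The 2 called genes were Dcn and Timp1 in both comparisons, and these shares are near the background. Between aged and middle-aged cells 0 of the 72 were called in limma, with 5 at an unadjusted p under 0.05, against 9.30% of all genes.

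The called antagonist was Dcn, which encodes decorin, a matrix proteoglycan that binds TGF-beta and myostatin. It averaged 13.67 ± 0.32 in aged, 13.83 ± 0.18 in middle-aged and 12.40 ± 0.28 in young cells. The change against young cells was 1.27 ± 0.18 or 2.41-fold in aged (adjusted p = 0.00111) and 1.43 ± 0.19 in middle-aged cells (adjusted p = 0.00149). It was the only 1 of 10 measured extracellular antagonists to be called, and the list's median was -0.12 in aged and 0.14 in middle-aged cells relative to young ones. Dcn is also a fibroblast marker and was the only one of 8 measured fibro-adipogenic and fibroblast markers to be called at either age. An unadjusted p under 0.05 was reached by 5 of these 8 at each older age, against 16.3% of all genes in aged and 16.1% in middle-aged cells. In aged against young cells the changes of these markers went in both directions, from -0.88 to 1.27, with a median of 0.44. The part of fibroblasts in the Dcn change was not tested. The called Smad2/3-responsive gene was Timp1, a secreted inhibitor of matrix metalloproteinases. It averaged 10.71 ± 0.42 in aged, 10.17 ± 0.35 in middle-aged and 8.20 ± 0.18 in young cells. Its change was 2.50 ± 0.20 or 5.67-fold in aged (adjusted p = 2.34e-05) and 1.97 ± 0.22 or 3.92-fold in middle-aged cells (adjusted p = 0.000575). The other 16 measured genes of that list were not called, though 3 of them differed by over 1 log2 unit in aged against young cells. These were Fn1, the gene for fibronectin, at 1.51 ± 0.42 (adjusted p = 0.0664), Ldlrad4, an inhibitor of Smad2/3 activation, at 1.48 ± 0.46 (adjusted p = 0.105), and Fbxo32, the muscle ubiquitin ligase atrogin-1, at -1.12 ± 0.43 (adjusted p = 0.212). Ldlrad4 was above the filter on 8 of 14 arrays, and its young mean of 3.58 lay below the filter. The list's median was 0.09 in aged and 0.21 in middle-aged cells relative to young ones.

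The remaining groups held no called gene in any comparison. Of the other ligands 8 of 13 were measured, and in aged against young cells the smallest p was that of Inha, the inhibin alpha subunit, at -0.33 ± 0.13 (adjusted p = 0.237). Myostatin, the closest relative of GDF11, was not analysed here. Of the other receptors and co-receptors 11 of 13 were measured, led in aged cells by Acvrl1 (ALK1) at 0.73 ± 0.23 (adjusted p = 0.113) and in middle-aged cells by the co-receptor Tgfbr3 at 0.39 ± 0.15 (adjusted p = 0.224). The proprotein proteases, which cleave the ligands from their prodomains, had 5 of 7 measured, with Bmp1 at -0.83 ± 0.33 in aged (adjusted p = 0.230) and Pcsk5 at 0.62 ± 0.20 in middle-aged cells (adjusted p = 0.153). Intracellular Smad transduction, with 21 of 22 measured, had a median of -0.23 both in aged and in middle-aged cells relative to young ones. Its smallest p belonged to Nedd4l, a ubiquitin ligase for SMAD2 and SMAD3, in aged cells (-0.44 ± 0.18, adjusted p = 0.245) and to Smad5, a transducer of BMP signals, in middle-aged cells (-0.44 ± 0.15, adjusted p = 0.164). Gdf3 had the smallest p of the ligands in middle-aged against young cells (0.15 ± 0.12, adjusted p = 0.640).

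Between aged and middle-aged cells, the gene with the smallest p in each list was Gdf3 among the ligands (-0.24 ± 0.12, adjusted p = 0.600), Acvrl1 among the receptors (0.50 ± 0.24, adjusted p = 0.586) and Fstl4, a follistatin-like gene, among the antagonists (-0.38 ± 0.18, adjusted p = 0.562). It was Pcsk5 among the proteases (-0.31 ± 0.20, adjusted p = 0.677), Stub1, a ubiquitin ligase, in intracellular transduction (0.55 ± 0.25, adjusted p = 0.554) and Timp1 among the Smad2/3-responsive genes (0.53 ± 0.22, adjusted p = 0.523). None of these passed.

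**Figure D4:**
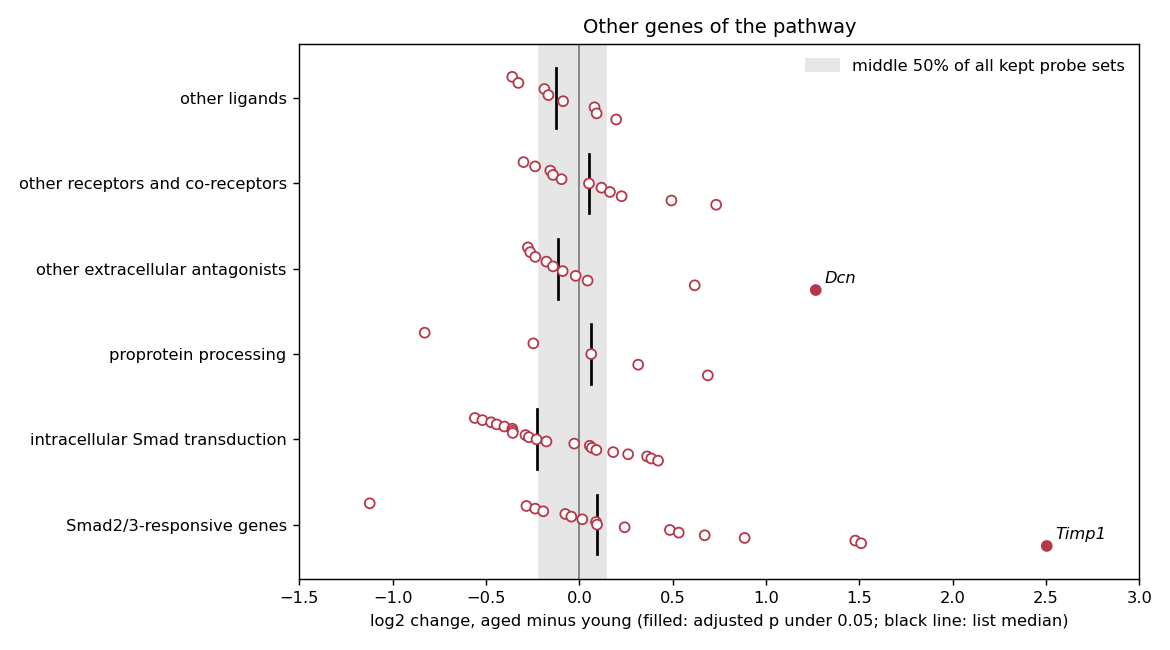
The aged minus young log2 change of each measured pathway gene (1 point per gene, brightest kept probe set) is plotted by list; filled points passed the adjusted p threshold, black lines are list medians and the grey band is the middle 50% of all probe sets. Dcn at 1.27 and Timp1 at 2.50 are the only filled points.

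Markers of some other cell types moved with age in the same arrays. The counts below stand beside the shares over all 13579 genes. In aged against young cells 3.75% of all genes were called and 16.3% had an unadjusted p under 0.05. In middle-aged against young cells these shares were 2.32% and 16.1%. All 9 myofibre markers were called higher in aged against young cells, and 0 of 9 were called by limma in middle-aged against young cells, where 4 had an unadjusted p under 0.05. Their mean level was 8.51 to 9.77 in aged, 7.20 to 8.48 in middle-aged and 6.39 to 7.51 in young cells, and aged minus young had a median of 2.11 over the list. Fst 1434458_at also had its highest mean in aged cells. Within aged cells the myofibre means were 8.51, 8.78, 9.43, 9.42 and 9.77 on aged 1 to 5, beside Fst 1434458_at levels of 6.66, 6.67, 7.78, 7.18 and 7.82. Both were higher on aged 3, 4 and 5, the aged arrays of set 2, than on aged 1 and 2. The other Fst probe set, 1421365_at, lay at 7.50, 6.09, 6.94, 6.96 and 5.59, lowest on aged 5, where the myofibre mean was highest. Within young cells the myofibre means were 7.39, 6.39, 7.51, 7.26 and 6.75, and young 2 and 5, with the highest young levels of Fst 1434458_at, had the lowest of them. Of 9 tenocyte markers 8 were called higher in aged and 8 in middle-aged cells against young ones. Their mean levels were 9.51 to 10.53 in aged, 9.47 to 10.95 in middle-aged and 6.62 to 8.07 in young cells. Dcn and Timp1 had both older ages above young cells, as this list did. Of 9 satellite cell markers 2 were called lower in aged against young cells, Fgfr4 and Calcr, and 5 had an unadjusted p under 0.05. All 9 changes were negative, from -1.42 to -0.22 with a median of -0.57. Their list means were 8.81 to 9.53 in aged and 9.65 to 10.02 in young cells. Of 7 pericyte and smooth muscle markers 1 was called, Pdgfrb, higher by 2.77 ± 0.32 in aged and 2.74 ± 0.34 in middle-aged against young cells (adjusted p = 0.000337 and 0.000892). Changes over that list ran from -0.70 to 2.77 in aged against young cells, with a median of 0.83. An unadjusted p under 0.05 was reached by 5 of the 7. The mean level of that list was 7.37 to 8.05 in aged, 7.07 to 7.81 in middle-aged and 6.65 to 7.08 in young cells. Of 6 macrophage markers 1 was called, Cd14, higher by 1.33 ± 0.25 in aged against young cells (adjusted p = 0.00846), and 2 had an unadjusted p under 0.05. The median change of these markers was 0.24, with list means of 5.36 to 5.81 in aged, 5.26 to 5.59 in middle-aged and 4.87 to 5.14 in young cells. Aged and young list means did not overlap for either list, as for the myofibre, tenocyte and satellite cell lists, the last of which was lower in aged cells. In the pericyte and macrophage lists the mean includes the 1 called gene, Pdgfrb or Cd14, and 1 gene can move the mean of a short list. Of all probe sets 2.82% had every aged array above every young one, and no such share was measured for list means. For the Smad2/3-responsive genes list means did not overlap either, though narrowly (8.65 to 9.06 in aged and 8.44 to 8.59 in young cells). That mean includes Timp1, the only called gene of the 17, at 2.50 in aged minus young, while the list's median change was 0.09. Whether the gap holds without Timp1 was not tested. In aged against young cells 0 of 5 endothelial and 0 of 3 Schwann cell markers were called in limma (2 and 1 at an unadjusted p under 0.05), with list means of 4.99 to 6.83 in aged and 5.33 to 5.86 in young cells for the endothelial list, and 5.93 to 8.23 in aged and 6.29 to 7.27 in young cells for the Schwann cell list. The part of these cell types in the changes of Fst, Dcn and Timp1 was not tested, and in sorted bulk RNA fewer cells of a type and less RNA per cell cannot be told apart.

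The genes whose level ran most like Fst 1434458_at over the 14 arrays were Efemp1 (Pearson r = 0.93), Tifa (0.92) and Mtm1 (0.90), a description over arrays that share ages and array sets. Mtm1 was itself higher in aged than in young cells by 1.32 ± 0.19 (adjusted p = 0.00151), while Efemp1 at 1.29 ± 0.37 (adjusted p = 0.0833) and Tifa at 0.90 ± 0.30 (adjusted p = 0.136) were not called. For Gdf11 the closest were Slurp1 (r = 0.84), Gm32743 (0.82) and Fam187b (0.81), none of which was called in aged against young cells. These 3 averaged 5.25, 3.91 and 3.95 over the 14 arrays, a low range like that of Gdf11.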

How the data were processed

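Per the submitters' processing notes, RMA was used, a method that subtracts background, brings arrays to 1 distribution and condenses the probes of a set to 1 value. The authors deposited these intensities unlogged, with array medians between 19.0 and 21.2. The sources used here give neither RMA's version nor a genome build. Cells were sorted, RNA was extracted with Trizol and labelled with a 3' IVT kit, per the labels. The log2 of the deposited intensity was taken with no further normalization. Symbols came from the platform annotation of 2016. Of 45101 probe sets, 64 control, 932 multi-gene and 9160 unnamed ones were left out, and probe sets above the 40th percentile of their array (log2 3.79 to 3.96) on at least 4 of 14 arrays were kept. All 14 arrays entered 1 fit with age as the factor (limma 3.58.1, R 4.3.3, two-sided moderated tests, Benjamini-Hochberg adjustment over all kept probe sets). A list's gene was read from the brightest probe set kept. Arrays have no counting depth, so precision is limited by their number.

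The genes, lists, array sets and alternatives were chosen with earlier results of these data known. Named were every probe set of the axis, up to 6 called genes per pathway list and comparison or otherwise that with the smallest p, and the 3 genes most correlated with Gdf11 and with Fst. Fgfr4, Calcr, Pdgfrb, Cd14, Fn1, Ldlrad4 and Fbxo32 were named after their values were seen. Pairwise array correlations ran from 0.940 to 0.987, and no 2 arrays were identical. The fit was checked on simulated data. Alternatives changed 1 choice at a time: dim filter, probe set choice, normalization, variance model, array weights, RNA-quality covariate, array set, replicate block, groups in the fit, linear scale and each array left out.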

Additional observations from a re-analysis of the deposited data

Results flagged for a closer look

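In 2 of 57 groups looked at, 1 array stood apart by Dixon's criterion, which chance alone gives in about 1 of 20 groups. Acvr2b 1419140_at lay at 3.79 on middle-aged 1, against 4.56 to 4.62 on the other middle-aged arrays. Acvr2b 1440525_at, which was too dim to be tested, lay at 4.32 on aged 5, against 3.44 to 3.58 on the other aged arrays. A further probe set annotated both to Acvr2a and to another gene was left out of the comparisons; its mean was 0.43 log2 units higher in aged than in young cells, with the lowest aged array at 5.45 and the highest young array at 5.36. Its signal cannot be assigned to either gene, and the difference was not tested.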

How the results depend on the processing

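The 740 probe sets called in aged against young cells became 476 without sequence-sharing probe sets, 1352 with the set modelled as a term, 12 within set 2 and 232 on linear values. Of the axis, 1 was called there, against 2 with the stricter filter, 3 with the set modelled as a term, 2 within set 1, and 0 with the RNA-quality covariate, within set 2 and on linear values. The 2 pathway genes became 5 within set 1 and 0 within set 2. For middle-aged against young cells the 444 became 275 without sequence-sharing probe sets, 1461 with array weights, 941 with the RNA-quality covariate, 889 with the set modelled as a term, 1079 within set 1, 0 within set 2, 772 with only those groups and 97 on linear values. Set 2 holds 1 middle-aged and 2 young arrays, so its 0 there says nothing about stability, and the lone array is assumed to vary like the other groups. There the axis had 0 called, against 2 within set 1 (Inhba 1422053_at and Fst 1434458_at), and the 2 pathway genes became 4 with array weights, 7 within set 1, 0 within set 2 and 1 on linear values. Aged against middle-aged cells gave no moved count. With each array left out, aged against young gave 471 to 762 probe sets, 1 to 3 of the axis and 2 to 4 pathway genes; middle-aged against young gave 149 to 512, 0 and 2. Fst 1434458_at was called in all 14 of these fits (change 1.90 to 2.48, adjusted p 0.00392 to 0.0450). Quantile normalization and median centring shifted the median of all probe sets by under 0.1 and moved no count of the axis.

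Replicate numbers did not pair the arrays: same-numbered arrays correlated at -0.31 to 0.26 (aged and young), -0.34 to 0.14 (middle-aged and young) and -0.48 to 0.11 (aged and middle-aged). With the replicate number as a block, 560 probe sets and 1 of the axis were called in aged against young cells, 167 and 0 in middle-aged against young cells, and 0 in aged against middle-aged cells. The cause of these shifts was not tested, beyond the smaller number of arrays within a set and of probe sets under a filter.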
